A study of Mus with 5 samples.

Results

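The thin filament of the cardiac sarcomere was examined through 7 of the 12857 genes measured by RNA-seq in E14.5 mouse hearts. The genes were chosen by name and function, with earlier results of these data known, and all 7 were found by their Ensembl identifiers. They encode the sarcomeric actins *Actc1* and *Acta1*, the troponin subunits *Tnnt2*, *Tnni1*, *Tnni3* and *Tnnc1*, and the tropomyosin *Tpm1*. The transgenic embryos were Nkx2.5 Cre/+;Bmp2 tg/+. In them, Cre expressed from the *Nkx2.5* locus removes a stop cassette, and a CAG promoter in the *Rosa26* locus then drives a *Bmp2* cDNA followed by eGFP. The transgenic line came from a single ES cell clone. The controls are labelled WT, and their strain and litters are not given for these libraries in the sources used here. In the cross that the study describes for embryos of this genotype the mothers carried Cre on both alleles, so littermates without the transgene would be Nkx2.5 Cre/+. Whether the WT pools carried the Cre allele is therefore not known, and if they did not, effects of Cre and of the transgene cannot be told apart here. Each library is a pool of 4 embryos, from which ventricles and valves were taken and the atria removed. Values were available for 3 transgenic pools and 2 WT pools, since the authors had excluded 1 WT pool that, by their methods, grouped poorly with the other WT pools. The spread of the WT pools kept may be too small for that reason, and p-values with it. The labels do not say whether pools came from separate litters, so p-values measure only the spread between these pools.

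The thin filament is a double strand of actin along which tropomyosin lies, with a troponin complex at regular intervals. Troponin C binds calcium, troponin I holds the filament in the relaxed state, and troponin T fixes the complex to tropomyosin. When calcium binds, tropomyosin shifts and myosin heads can attach to actin. Cardiomyocytes replace several of these proteins as they mature. *Tnni1*, the slow skeletal troponin I, is the main form of the fetal heart and gives way to cardiac troponin I, *Tnni3*, around and after birth. *Acta1*, the skeletal α-actin, is expressed in the developing heart beside *Actc1*, the cardiac α-actin. Among its questions the study asked how *Bmp2* acts on the cardiomyocytes of the chambers, and the thin filament genes of the genotypes are compared here as one part of that.

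The files hold read counts scaled to library size (CPM) for each gene and pool. They correspond to 10564780, 9442233 and 7931484 reads in transgenic pools 1, 2 and 3, and to 9351893 and 7427905 reads in WT pools 1 and 2. Between 60077 and 91286 reads per pool fell on *Actc1*, and between 716 and 1162 on *Acta1*. Counting error was at most 3.74% of a pool's value for *Acta1* and 0.408% for *Actc1*. PCR copies cannot be recognised, so these figures cover counting error only. CPM values are not corrected for transcript length, and transcript lengths were not used here, so levels are not compared between genes. Genotypes were compared with limma on log2(CPM + 0.5), with Benjamini-Hochberg adjustment across the 12857 genes tested. *Bmp2* itself, the target of the transgene, measured 23.0, 27.1 and 23.3 CPM in transgenic pools 1, 2 and 3, against 14.1 and 10.2 CPM in WT pools 1 and 2. The groups did not overlap, and in this respect no library went against its label.

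In the transgenic hearts, none of the 7 thin filament genes passed the threshold of 0.05 for the limma adjusted p. Over all genes 362, or 2.82%, passed it. At an unadjusted limma p under 0.05, 3 of the 7 passed, *Tnni3*, *Tnnc1* and *Tpm1*, where 17.7% of all genes did. On the reads recovered from the values, edgeR called 0 of the 7, both with its exact test (3.74% of all genes) and with its quasi-likelihood test (3.1%), and DESeq2 called 1, *Tnnc1* (3.64% of the genes for which it gave an adjusted p). The log2 fold change was above 0 for 7 of 7 genes and for 51.2% of all genes. The mean of each of the 7 was higher in transgenic than in WT pools, with log2 fold changes from 0.04 to 0.24, except that *Actc1* was lower after quantile normalization, by -0.05 on the log2 scale. The median log2 fold change of the 7 was 0.12, and that of all genes was 0.0045. For 4 of the 7 genes every transgenic pool lay above both WT pools, as was so for 17.7% of all genes. These shares were higher among genes with high values. Of the 211 genes with a mean of at least 500 CPM, a level chosen after the values were seen and reached by 6 of the 7, the median log2 fold change was 0.068 and 138 were above 0, 79 (37.4%) had an unadjusted limma p under 0.05, and 88 (41.7%) had every transgenic pool above both WT pools. The 3 and the 4 genes counted above are all among the 6 at that level.

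**Figure D1:**
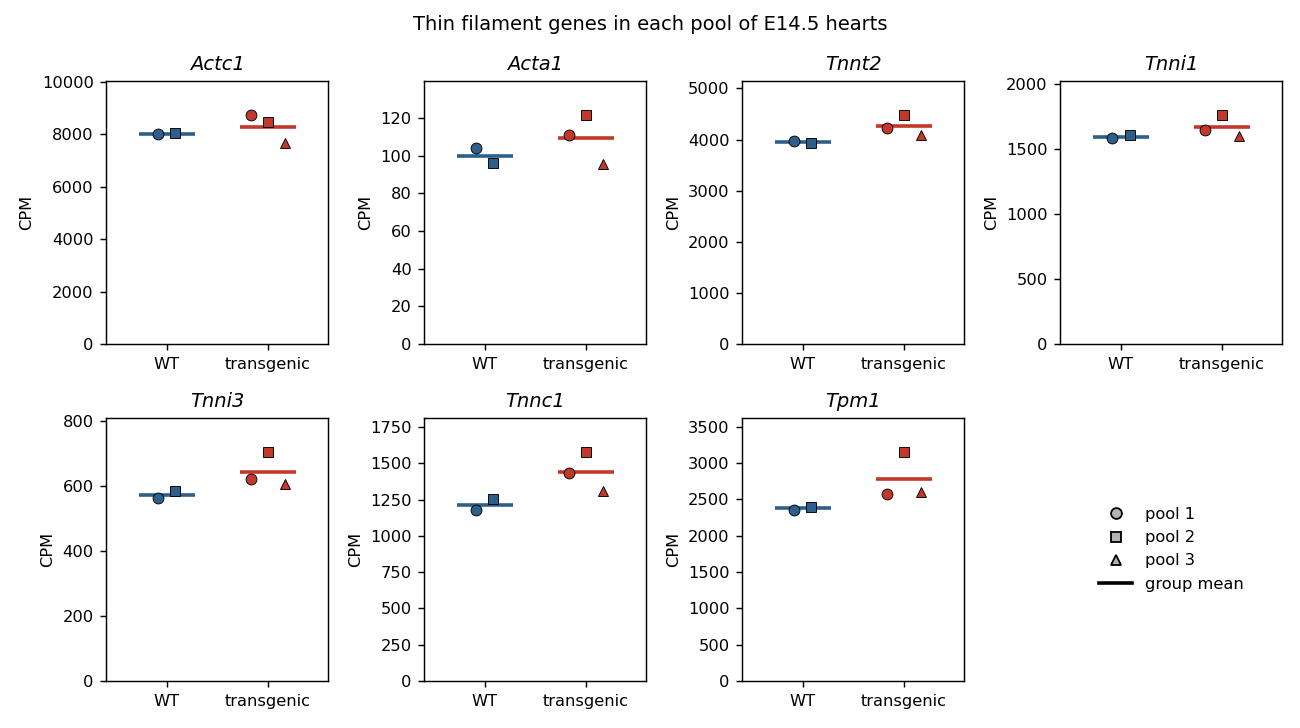
CPM (y axis, from 0) of the 7 thin filament genes in each pool of WT and transgenic E14.5 hearts. Points are pools, their shape gives the pool number within its genotype, and the bar is the group mean. The groups overlap for *Actc1*, *Acta1* and *Tnni1*, and transgenic pool 2 is the highest pool for 6 of the 7 genes.

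*Actc1* (ENSMUSG00000068614, chromosome 2 of GRCm38, 114047282 to 114052875) encodes the main actin of the cardiac sarcomere. Transgenic pools 1, 2 and 3 held 8730, 8466 and 7657 CPM, and WT pools 1 and 2 held 8000 and 8052 CPM. The groups overlapped, since transgenic pool 3 was below both WT pools and the other two were above them. Means were 8284 ± 559 CPM for the transgenic group (SD, n = 3) and 8026 ± 36.9 CPM for WT (SD, n = 2). This gave a log2 fold change of 0.04 ± 0.09 (SE; limma adjusted p = 0.851), with a 95% interval from -0.15 to 0.23. Without transgenic pool 1, 2 or 3 it was 0.0044, 0.027 or 0.099.

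*Acta1* (ENSMUSG00000031972, chromosome 8, 123891758 to 123894775), the skeletal α-actin, measured 111, 121 and 95.7 CPM in the transgenic pools, against 104 and 96.0 CPM in WT. The highest pool was transgenic pool 2 and the lowest was transgenic pool 3, so the WT pools lay within the transgenic range. Its log2 fold change of 0.12 ± 0.08 (SE) did not pass the test (limma adjusted p = 0.462), and the 95% interval ran from -0.05 to 0.30. It was 0.046 without transgenic pool 2, 0.22 without transgenic pool 3 and 0.067 without WT pool 2. *Acta1* and *Actc1* encode nearly identical proteins, and how the authors' quantification divided reads that fit both genes was not tested, which leaves the value of *Acta1*, with far fewer reads, uncertain. Within each pool, the log2 ratio of *Acta1* to *Actc1* was -6.29, -6.12 and -6.32 for transgenic hearts, against -6.26 and -6.38 for WT hearts. The groups overlapped, and their means differed by 0.08 (exact permutation test, two-sided, p = 0.6). This difference depended on single pools, at 0.019 without transgenic pool 2, 0.018 without WT pool 2 and 0.14 without WT pool 1. For 3 pools against 2, the smallest p that this test can give is 0.1.

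*Tnnt2* (ENSMUSG00000026414, chromosome 1, 135836315 to 135852268), which encodes cardiac troponin T, measured 4230, 4472 and 4096 CPM in the transgenic pools, against 3976 and 3924 CPM in WT. The groups did not overlap, but the gap between them was smaller than the spread of the transgenic pools. Its log2 fold change of 0.11 ± 0.07 (SE) did not pass the test (limma adjusted p = 0.463), and the 95% interval ran from -0.05 to 0.27. RefSeq lists 9 curated transcripts of *Tnnt2*. The fetal and adult forms of cardiac troponin T are made from this gene by alternative splicing, and a value per gene does not separate them. *Tnni1* and *Tnnt2* lie near each other on chromosome 1, with 25325 bases and the gene *Lad1* between them.

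*Tnni1* (ENSMUSG00000026418, chromosome 1, 135783033 to 135810989), the fetal troponin I of the heart, measured 1646, 1762 and 1600 CPM in the transgenic pools, against 1585 and 1614 CPM in WT. Transgenic pool 3 lay between the WT pools. Its log2 fold change of 0.06 ± 0.06 (SE) did not pass the test (limma adjusted p = 0.666), with a 95% interval from -0.07 to 0.20. Without transgenic pool 2 it was 0.021.

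*Tnni3* (ENSMUSG00000035458, chromosome 7, 4518305 to 4522718), the mature cardiac troponin I, measured 623, 705 and 606 CPM in the transgenic pools, against 564 and 584 CPM in WT. The groups did not overlap, and transgenic pool 2 stood highest. Means were 644 ± 53.1 CPM (SD, n = 3) and 574 ± 13.9 CPM (SD, n = 2). Its log2 fold change of 0.16 ± 0.07 (SE) did not pass the adjusted threshold (limma adjusted p = 0.198). The 95% interval, not adjusted for the number of genes, ran from 0.02 to 0.30. With transgenic pool 2 left out, the log2 fold change became 0.10 (limma adjusted p = 0.471), and across the 17 alternative settings the adjusted p ran from 0.0509 to 0.566.

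The balance of the mature and the fetal troponin I was compared within each pool, where the scaling of the libraries cancels. *Tnni3* made up 27.4%, 28.6% and 27.5% of the summed CPM of *Tnni1* and *Tnni3* in transgenic pools 1, 2 and 3, and 26.3% and 26.6% in WT pools 1 and 2. Every transgenic pool had the higher share of the mature form. Because CPM values are not corrected for length, these shares compare pools and do not give the share of molecules. The log2 ratio of *Tnni3* to *Tnni1* was -1.37 ± 0.046 for transgenic (SD, n = 3) and -1.48 ± 0.016 for WT hearts (SD, n = 2). The difference of 0.10 had an exact two-sided permutation p of 0.1, the smallest that this design can give, and leaving out single pools gave differences of 0.08 to 0.12. The groups did not overlap, but the gap between them was smaller than the distance from the lowest to the highest transgenic pool. Over all genes the groups did not overlap in the log2 ratio to *Tnni1* for 33.1%.

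**Figure D2:**
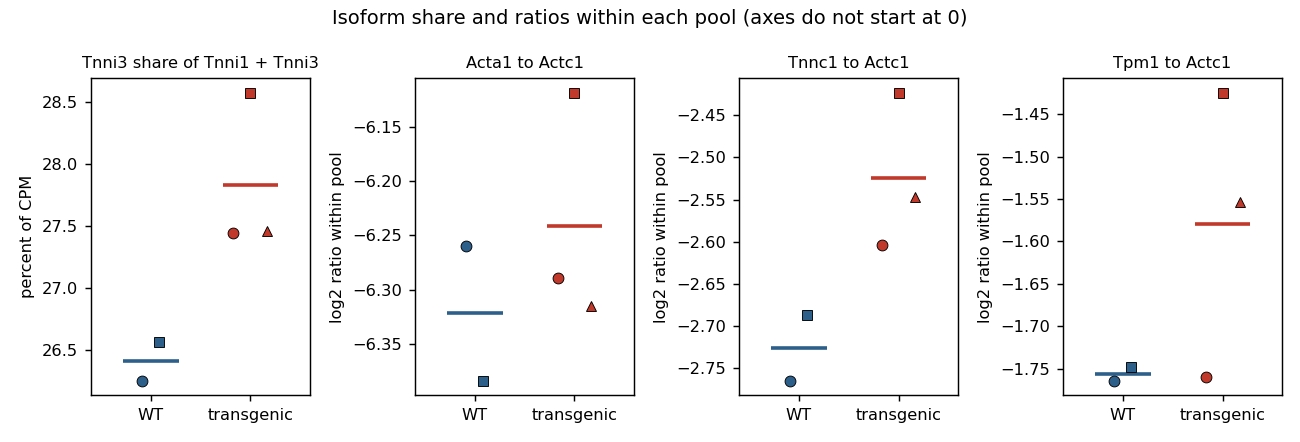
Left panel, *Tnni3* as a percent of the summed CPM of *Tnni1* and *Tnni3*; other panels, log2 ratio of *Acta1*, *Tnnc1* and *Tpm1* to *Actc1* within each pool (y axes do not start at 0). Points are pools (circle, square and triangle for pools 1, 2 and 3) and bars are group means. The transgenic pools lie at 27.4% to 28.6% *Tnni3* against 26.3% and 26.6% in the WT pools, while the groups overlap for *Acta1* and *Tpm1*.

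*Tnnc1* (ENSMUSG00000091898, chromosome 14, 31208312 to 31211729) encodes the calcium-binding subunit that cardiac and slow skeletal muscle share. It measured 1436, 1577 and 1310 CPM in the transgenic pools, against 1177 and 1251 CPM in WT. The groups did not overlap, and the lowest transgenic pool was near the higher WT pool. Means were 1441 ± 134 CPM (SD, n = 3) and 1214 ± 51.9 CPM (SD, n = 2). Its log2 fold change of 0.24 ± 0.07 (SE) had the lowest adjusted p of the 7 genes (limma, 0.0857). The 95% interval, not adjusted for the number of genes, ran from 6.29% to 31.9% higher. The call depended on the test and on the pools. DESeq2 gave an adjusted p of 0.0212 and limma without transgenic pool 3 gave 0.0147, whereas edgeR's exact test gave 0.0609, and the 17 alternative settings spanned 0.00342 to 0.477.

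*Tpm1* (ENSMUSG00000032366, chromosome 9, 67022590 to 67049672) encodes α-tropomyosin, the main tropomyosin of the heart. It measured 2577, 3153 and 2608 CPM in the transgenic pools, against 2355 and 2397 CPM in WT. Transgenic pool 2 stood well above all the others, and the other two transgenic pools were also above both WT pools. Its log2 fold change of 0.22 ± 0.08 (SE) did not pass the adjusted threshold (limma adjusted p = 0.177), and the 95% interval, not adjusted for the number of genes, ran from 0.04 to 0.40. With transgenic pool 2 left out it became 0.13 (limma adjusted p = 0.382). *Tpm1* passed the threshold with quantile normalization (limma adjusted p = 0.00668) and with the pool number as a block (limma adjusted p = 0.0312). In the other alternative settings it did not pass, and nothing shows that the numbers pair the pools. RefSeq lists 10 curated transcripts of *Tpm1*, whose muscle and non-muscle forms are summed in this value.

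**Figure D3:**
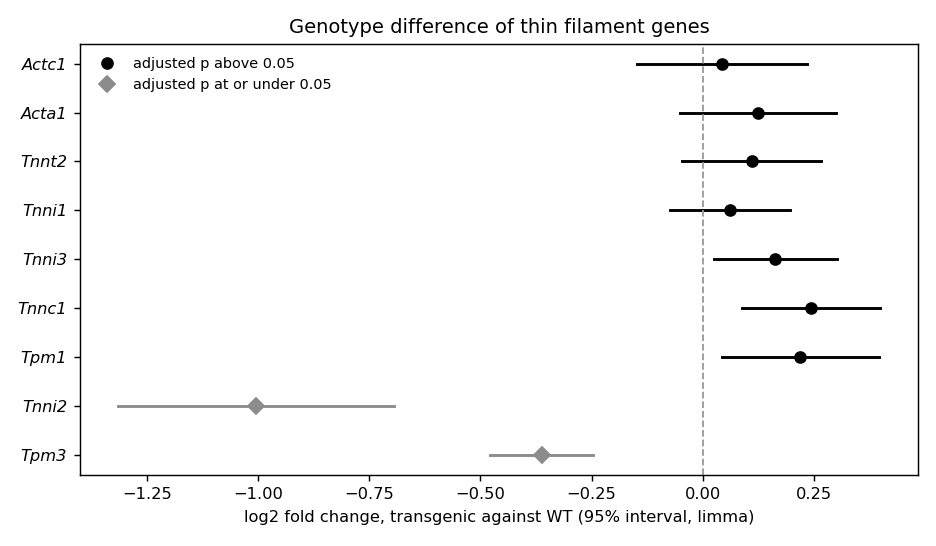
Log2 fold change of transgenic against WT pools (x axis) with its 95% interval from limma, not adjusted for the number of genes, for the 7 thin filament genes and, in grey, for *Tnni2* and *Tpm3*. Circles mark a limma adjusted p above 0.05 and diamonds at or under it. The intervals of *Tnni3*, *Tnnc1* and *Tpm1* lie above 0, those of the other 4 genes span it, and *Tnni2* and *Tpm3* lie below it. *Tpm3-rs7*, which was also matched, is not drawn and was higher in transgenic hearts (log2 fold change 5.95). In the sum of *Tpm3* and *Tpm3-rs7* the groups overlapped.

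Spread between pools was larger in the transgenic than in the WT group for all 7 genes, as it was for 60.1% of all genes with reads in both groups. For *Tpm1* the coefficient of variation was 11.7% over the 3 transgenic pools and 1.25% over the 2 WT pools, and counting error was at most 0.748%. For *Actc1* it was 6.75% and 0.460%, with 0.408% from counting. With 2 WT pools, kept after the one that differed from them was excluded, the WT spread is poorly known and may be too low, so this comparison does not show that transgenic hearts varied more. Transgenic pool 2 was the highest of the 5 pools for 6 of the 7 genes (24.3% of all genes were highest in that pool), and *Actc1* was the exception, with its highest value in pool 1. The 7 genes together came to 19353, 20257 and 17971 CPM in transgenic pools 1, 2 and 3, and to 17762 and 17919 CPM in WT pools 1 and 2. In this sum, to which *Actc1* contributes most, transgenic pool 3 was close to the WT pools and pool 2 was farthest from them. Single genes of pool 3 lay on both sides, with *Actc1* at 0.954 and *Tpm1* at 1.10 of the WT mean.

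Relative to *Actc1* in the same pool, *Tnnc1* was the only one of the other 6 genes for which the groups did not overlap. Over all genes the groups did not overlap in this ratio for 25.4%, so that 1 of 6 is no more than the background. Its log2 ratio to *Actc1* was -2.60, -2.42 and -2.55 for transgenic hearts, against -2.76 and -2.69 for WT hearts, a difference of 0.20. The ratio of *Tpm1* to *Actc1* was -1.76, -1.42 and -1.55 for transgenic hearts, against -1.76 and -1.75 for WT hearts. Transgenic pool 1 was here at the level of the WT pools. The ratios of *Tnnt2*, *Tnni1* and *Tnni3* to *Actc1* differed between the groups by 0.07, 0.02 and 0.12 on the log2 scale, and each overlapped. These ratios to *Actc1*, apart from that of *Acta1*, were added after the values were seen and carry no test.

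The genes most alike in their pattern over the 5 pools were found by the root mean square difference of log2 values, after the mean of each gene was subtracted. *Tnnt2* and *Tnni1* were nearest to each other among the 7, at 0.029, and *Tnni3* and *Tpm1* were nearest to each other, at 0.046. *Actc1* was nearest to *Tnni1*, at 0.054, *Acta1* to *Tnnt2*, at 0.078, and *Tnnc1* to *Tnni3*, at 0.051. The 7 were not each other's closest genes overall. Between 63 genes, for *Tpm1*, and 751 genes, for *Actc1*, of all those measured were closer than the nearest of the 7, and for *Tnnt2* and *Tnni3* these numbers were 160 and 240. The median distance to all genes was 0.12 from *Tnnt2* and 0.15 from *Tnni3*. The nearest of the 405 other genes with a name was *Gpc1* for *Actc1*, *Slc16a3* for *Acta1*, *Phldb2* for *Tnnt2* and *Tnni1*, *Anp32a* for *Tnni3*, *Banf1* for *Tnnc1* and *Uqcrb* for *Tpm1*, at distances from 0.021 to 0.090. Those 405 are the genes that the study lists as changed between these libraries, so a pattern with a genotype difference is favoured among them.

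Of 24 other thin filament genes, 3 could be matched to an identifier, because names were paired with identifiers only in the study's list of changed genes. *Tnni2*, *Tpm3* and *Tpm3-rs7* all passed the limma threshold, 2 of them lower and 1 higher in transgenic hearts. Since the study picked them on these libraries, this is not independent evidence of a direction. *Tnni2*, which encodes the fast skeletal troponin I, measured 10.6, 7.62 and 9.004 CPM in the transgenic pools, against 19.3 and 17.8 CPM in WT. Its transgenic pools were all below both WT pools. These values rest on 71 to 183 reads. *Tnni2* fell by 1.01 ± 0.15 on the log2 scale (SE; limma adjusted p = 0.00132), to 0.498 of the WT level. Its share of the summed CPM of the 3 troponin I genes was 0.393% ± 0.080 (SD, n = 3) in transgenic and 0.848% ± 0.062 (SD, n = 2) in WT hearts. *Tpm3*, another tropomyosin gene, measured 143, 141 and 141 CPM in the transgenic pools, against 181 and 183 CPM in WT. This gave a difference of -0.36 ± 0.05 on the log2 scale (SE; limma adjusted p = 0.00165). *Tpm3-rs7*, whose name marks it as related to *Tpm3*, rested on 416, 364 and 358 reads from the transgenic pools, against 0 and 3 reads from WT. The summed value of *Tpm3* and *Tpm3-rs7* was 182, 180.3 and 186 CPM for transgenic hearts, against 181 and 184 CPM for WT hearts, and in this sum the groups overlapped. Whether reads were divided differently between both genes in the genotypes was not tested, and the separate values of *Tpm3* and *Tpm3-rs7* are uncertain for that reason.

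**Figure D4:**
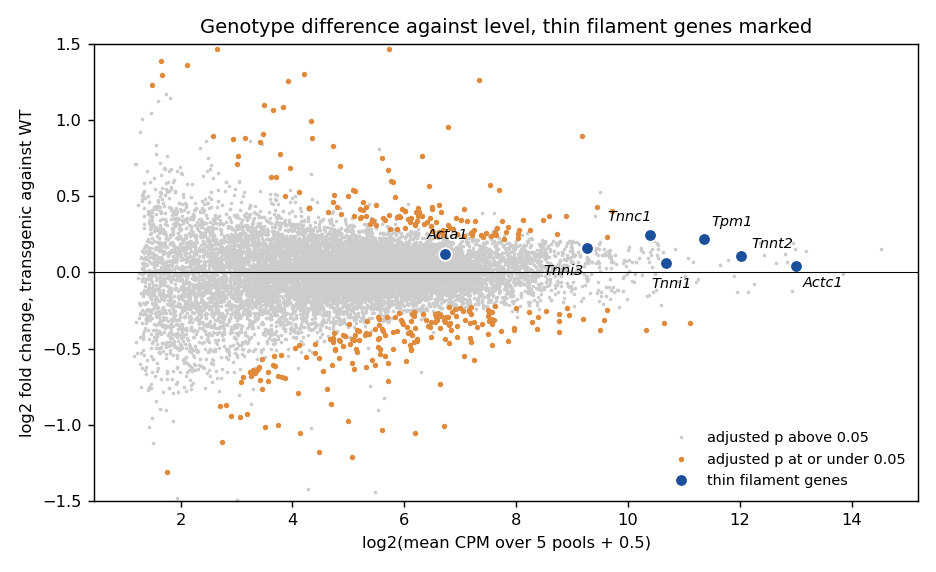
Log2 fold change of transgenic against WT pools (y axis, limma) against log2(mean CPM over the 5 pools + 0.5) (x axis) for the genes tested, of which 25 lie outside the plotted range of -1.5 to 1.5. Orange points have an adjusted p at or under 0.05 and blue points are the 7 thin filament genes. All 7 blue points lie above 0, from 0.04 for *Actc1* to 0.24 for *Tnnc1*, and have adjusted p-values above 0.05.

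Markers of cardiomyocytes and of other cell types were also read in the same pools, where an identifier was paired with their name. Of 11 cardiomyocyte markers 2 were matched to an identifier, *Myl7* and *Ryr2*. *Myl7*, a myosin light chain of atrial and early ventricular myocardium, measured 653, 869 and 617 CPM in the transgenic pools, against 384 and 373 CPM in WT (log2 fold change 0.90, limma adjusted p = 0.000166). It was highest in transgenic pool 2, as were 6 of the 7 thin filament genes. *Ryr2*, the calcium release channel of cardiomyocytes, measured 480, 425 and 459 CPM in the transgenic pools, against 548 and 556 CPM in WT. Unlike *Myl7*, it was lowest in transgenic pool 2, and it fell by 0.28 on the log2 scale (limma adjusted p = 0.0175). The summed level of *Myl7* and *Ryr2* was 1134, 1294 and 1076 CPM for transgenic hearts, against 932 and 930 CPM for WT hearts. These 2 genes went in opposite directions, so the higher sum reflects *Myl7* alone.

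Of 6 endothelial and endocardial markers 2 were matched, and *Cdh5*, which had more reads, and *Kdr* together measured 376, 316 and 368 CPM in the transgenic pools, against 447 and 439 CPM in WT. Their lowest value was in transgenic pool 2. *Kdr*, a VEGF receptor, passed the threshold (log2 fold change -0.46, limma adjusted p = 0.00286), and *Cdh5*, an endothelial cadherin, did not (-0.25, limma adjusted p = 0.0563). Of 7 smooth muscle and pericyte markers 3 were matched, *Pdgfrb*, *Rgs5* and *Myh11*, and together they measured 138, 138 and 157 CPM in the transgenic pools, against 188 and 185 CPM in WT. *Rgs5* and *Myh11* passed the threshold, and *Pdgfrb*, which had the most reads, did not (limma adjusted p = 0.0519). *Pdgfra*, the single matched gene of 7 markers of fibroblasts, epicardium and cushion mesenchyme, measured 102, 92.0 and 105 CPM in the transgenic pools, against 126 and 127 CPM in WT. It passed the threshold (log2 fold change -0.34, limma adjusted p = 0.00919).

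Of 7 skeletal muscle markers 2 were matched, *Acta1* and *Ckm*, the muscle creatine kinase, which the heart also expresses. *Ckm* had more reads and fell by 0.27 on the log2 scale (limma adjusted p = 0.0232), and together they measured 529, 532 and 466 CPM in the transgenic pools, against 587 and 576 CPM in WT. None of the 5 red blood cell markers was matched, and none of the matched markers was at 0 in any pool. The matched markers other than *Acta1* come from the study's list of changed genes and do not stand for their cell types. Their part in the values of the thin filament genes was not tested. In bulk RNA, fewer cells of a type and less RNA per cell cannot be told apart.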

How the data were processed

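RNA of ventricles and valves was pooled from 4 embryos per library. Per the study's methods and the labels, the authors removed adaptor sequence with cutadapt, quantified genes with RSEM over GRCm38 and Ensembl genes, excluded 1 WT pool and used edgeR. The authors deposited CPM values, relative to scaled library sizes, for 12857 genes. In all 5 libraries 100% of values were whole multiples of the worth of 1 read, within 0.01 reads, and the reads recovered from them were used in alternative tests.

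Genotypes were compared by limma 3.58.1 (R 4.3.3) after the values were transformed to log2(CPM + 0.5), using a variance trend and no covariates. The filter, at least 1 CPM in at least 2 libraries, removed 0 genes. The ratios of *Tnni3* to *Tnni1* and of *Acta1* to *Actc1* within a pool were compared by an exact permutation test over pools. The other ratios to *Actc1* were not tested. Alternatives were other pseudocounts, filters and scalings, edgeR 4.0.16, DESeq2 1.42.0, blocking on the pool number, and omission of single pools.

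The genes named are the 7 members, *Bmp2*, the listed thin filament and cell type genes paired with an identifier, and the genes nearest in pattern. *Lad1* was named for its position. Members and lists were chosen with earlier results of these data known. Positions are from RefSeq for GRCm38.p6, matched by symbol, for 7 of 7 genes. No sequences of these genes were used here.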

Additional observations from a re-analysis of the deposited data

How the results depend on the processing

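The number of genes called was 362, and fell to 10 with limma without the variance trend and to 232 with DESeq2, which gave an adjusted p for 6376 genes; with each pool left out it ran from 43 to 464, the lowest numbers, 43 and 45, coming when a WT pool was left out and the remaining WT pool was assumed to vary like the transgenic pools, and it was 226 without transgenic pool 2. TMM factors computed anew gave the deposited scaling again. The log2 fold change of *Actc1* reversed to -0.050 with quantile normalization (limma adjusted p = 0.556, from 0.478 to 0.989 over its settings). *Tnnc1* passed the threshold with DESeq2 (log2 fold change 0.25) and without transgenic pool 3, and ranged from 0.18 to 0.31 with pools left out. *Tpm1* passed it with quantile normalization (0.20, limma adjusted p = 0.00668, from that value to 0.526 over its settings), and was 0.13 without transgenic pool 2. *Acta1*, *Tnnt2*, *Tnni1* and *Tnni3* kept their direction and did not pass the threshold in any of their 17 settings. The causes of these shifts were not tested.

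With the pool number as a replicate block, 655 genes were called, and *Tnnc1* (0.31, limma adjusted p = 0.00342) and *Tpm1* (0.26, limma adjusted p = 0.0312) were among them, within the ranges of 0.00342 to 0.477 and 0.00668 to 0.526 over their settings. This fit also takes its fold changes from numbers 1 and 2 alone, so they equal those without transgenic pool 3, where with no block *Tnnc1* passed (limma adjusted p = 0.0147) and *Tpm1* did not (0.0889). No other call of the 7 genes changed. Only numbers 1 and 2 are shared by the groups, and the correlations of deviations of same-numbered pools were -0.033 and -0.067 across 11483 genes, which are not independent replicates, so nothing shows that the numbers pair the pools. Among the 7 genes, *Acta1* had the fewest reads and the largest counting error, and 2 WT pools limit every gene.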
